A study of Mus musculus with 4 samples.

Results

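Wip1, the protein encoded by Ppm1d, belongs to the metal-dependent PPM family of serine/threonine phosphatases. The PPM transcripts examined here are those of Ppm1d and 9 relatives, Ppm1a, Ppm1b, Ppm1f, Ppm1g, Ppm1h, Ppm1k, Ppm1l, Ppm1m and Ilkap. They were found as every probe set that the platform's annotation gives to one of these 10 symbols, 10 of 18193 gene symbols and 26 of the 45101 probe sets on the array. None of the 26 carried a symbol of another gene as well. RNA came from mouse embryonic fibroblasts, connective tissue cells grown out of embryos, and each of 4 groups was measured on 1 Affymetrix Mouse Genome 430 2.0 array. The groups were cells labelled Wip1-/- harvested 4 h after 5 Gy of gamma radiation, unirradiated cells labelled Wip1-/- (0 h), Wip1+/+ cells harvested 4 h after 5 Gy, and unirradiated Wip1+/+ cells (0 h). The labels do not say which part of Ppm1d was removed, from how many embryos the cells came or what their strain was. Since no unirradiated array was made at 4 h, the effect of radiation and that of 4 h in culture cannot be told apart.

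PPM phosphatases work as single subunits that hold metal ions in the catalytic centre, and are not blocked by the toxins that inhibit the PP1 and PP2A enzymes. Ppm1d is itself switched on by p53 after DNA damage. Wip1 then removes phosphates from p53, from the kinases ATM, Chk1, Chk2 and p38 and from histone H2AX, which helps to end the damage response. Some of its relatives act on TGF-beta and stress kinase signalling (Ppm1a, Ppm1b, Ppm1l) or on the cytoskeleton and adhesion (Ppm1f, Ilkap). Others act on RNA splicing (Ppm1g), amino acid breakdown in mitochondria (Ppm1k) and Rab GTPases (Ppm1h).

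The bases before the start of Ppm1d are shown because p53 and cyclic AMP response element factors are known to act near the start of the human gene, and those of Ppm1a because it was the only other member with the same cyclic AMP response element. Both are the 250 bases upstream of the annotated start, from RefSeq on GRCm38.p6. In the Ppm1d sequence the first run of capitals is a match to the p53 decamer, and the other is the element TGACGTCA. In the Ppm1a sequence the capitals mark TGACGTCA.
Ppm1d, chr11:85311004-85311253, plus strand: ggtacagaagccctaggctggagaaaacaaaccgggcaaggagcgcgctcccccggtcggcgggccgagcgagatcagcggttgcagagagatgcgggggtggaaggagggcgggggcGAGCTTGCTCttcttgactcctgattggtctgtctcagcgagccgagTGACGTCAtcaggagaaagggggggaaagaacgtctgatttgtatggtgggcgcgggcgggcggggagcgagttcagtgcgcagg
Ppm1a, chr12:72760961-72761210, plus strand: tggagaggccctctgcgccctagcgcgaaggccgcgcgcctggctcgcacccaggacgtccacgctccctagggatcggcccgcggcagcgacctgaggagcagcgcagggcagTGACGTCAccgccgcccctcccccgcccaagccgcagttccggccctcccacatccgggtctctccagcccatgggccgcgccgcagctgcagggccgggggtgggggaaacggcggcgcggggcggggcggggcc

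Promoter sequences were matched for 8 of the 10 genes, with 11 annotated starts in all, and none was matched for Ppm1l and Ilkap. TGACGTCA, which reads the same on both strands, begins 85 bases before the start of Ppm1d and 136 bases before that of Ppm1a. It was found in 1.55% of 32851 promoters of the same length. A match to the p53 decamer, searched on both strands, begins 132 bases before the start of Ppm1d. Ppm1d was the only member with such a match, and 7.13% of all promoters hold one. These motifs do not overlap each other in the Ppm1d sequence. A GC box, GGGCGG on either strand, stood in 7 of the 11 member promoters and in 32.7% of all. A match describes letters in this window and does not show that a factor binds.

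The values are linear signal intensities, and a log2 ratio is taken between 2 arrays after signals under 46.5, the 40th percentile of all values, are set to that floor. Of the 26 probe sets, 22 had a mean over the 4 arrays of at least 67.97, the median of all probe sets, and every one of the 10 genes kept at least 1. The 4 dimmer ones were 2 of Ppm1a, 1 of Ppm1k and 1 of Ppm1l. Their signals ran from 2.8 to 75.4. The closest to the limit were Ppm1l 1435699_at, with a mean of 65.8, and Ppm1a 1429500_at on the other side, with 96.9. Each group held a single array, so no test was run and no spread between cultures was measured. Probe sets of the same gene give a partial measure of error, and the SD of their log2 ratios was pooled over 5278 genes. It was 0.62 for irradiation of cells labelled Wip1-/-, 0.37 for irradiation of Wip1+/+ cells, 0.65 between the unirradiated genotypes and 0.41 between the irradiated ones.

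The array of unirradiated cells labelled Wip1-/- was unlike the rest. In 18 spike-in controls, transcripts added in fixed amounts, log2 ratios had an SD of 0.44 to 0.47 where a pair included it and of 0.07 to 0.10 among the other 3. All 10 fibroblast markers were above the floor on every array, with summed signals of 206259 and 293329 on the irradiated and unirradiated arrays labelled Wip1-/- and 189210 and 199703 on those of Wip1+/+ cells. They did not move together: between the unirradiated genotypes 6 were higher with the Wip1-/- label and 4 lower, Lum by 3.53-fold. Summed signals of 14 macrophage markers were 2179 and 2606 on the arrays labelled Wip1-/- and 9939 and 9765 on the Wip1+/+ arrays, with 11 or 12 of the 14 above the floor. Among these, Itgam and Aif1 were under the floor on all 4 arrays. The 6 epithelial markers summed to 1316 and 1184 on the arrays labelled Wip1-/- and 780 and 871 on the Wip1+/+ arrays. Most of this was Krt18, at 842 and 818 against 572 and 552. Cdh1, Krt5 and Krt14 did not pass the filter. Krt14 was lower on both arrays labelled Wip1-/-, and Epcam was lower with that label without irradiation (83.1 against 142). After irradiation Epcam was higher with that label (194.9 against 13.3), where the Wip1+/+ signal was under the floor. The 4 endothelial markers summed to 240 to 362 on the 4 arrays, and the 4 skeletal muscle markers to 7697 to 9809. Nearly all of the muscle sum was Acta1, an actin, at 7500 to 9642, and Myog, a defining muscle factor, was under the floor on all 4 arrays.

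Ppm1d, the phosphatase named in the genotype, was measured by 2 probe sets that gave different patterns. The probe set 1449092_at read 561 and 219 on the irradiated and unirradiated arrays labelled Wip1-/-, and 463 and 317 on the irradiated and unirradiated Wip1+/+ arrays. Both irradiated arrays were above both unirradiated arrays, and the genotypes overlapped. Irradiated over unirradiated signal was 2.56-fold (log2 ratio 1.36) in cells labelled Wip1-/- and 1.46-fold (log2 ratio 0.55) in Wip1+/+ cells. In these bulk samples a change in the number of cells of a type and a change in RNA per cell cannot be told apart. The wider of these ratios uses the unirradiated array labelled Wip1-/-, on which spike-in controls differed.

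The other probe set of Ppm1d, 1434142_at, read 482 and 504 on the irradiated and unirradiated arrays labelled Wip1-/-, and 364 and 375 on those of Wip1+/+ cells. Here the genotypes did not overlap, and irradiation made little difference. The signal was 1.32-fold higher with the Wip1-/- label after irradiation and 1.34-fold higher without it. The log2 ratios for irradiation were -0.06 and -0.04 in cells labelled Wip1-/- and in Wip1+/+ cells.

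On the pair of irradiated arrays both probe sets of Ppm1d were higher with the Wip1-/- label, by log2 ratios of 0.40 and 0.28. Set against both Wip1+/+ arrays averaged, without the array that stood apart, the irradiated array gave 0.38 and 0.55. That average includes unirradiated Wip1+/+ cells, so these values mix irradiation with genotype. For 1449092_at the log2 ratio for irradiation was 0.55 in Wip1+/+ cells. On the unirradiated arrays the probe sets went opposite ways, with 0.43 for 1434142_at and -0.53 for 1449092_at. Neither probe set was low on both arrays labelled Wip1-/-. Whether the probes lie inside or outside the removed part was not known here. The signal is therefore no check of the genotype, and the knockout arrays are called by their label.

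**Figure D1:**
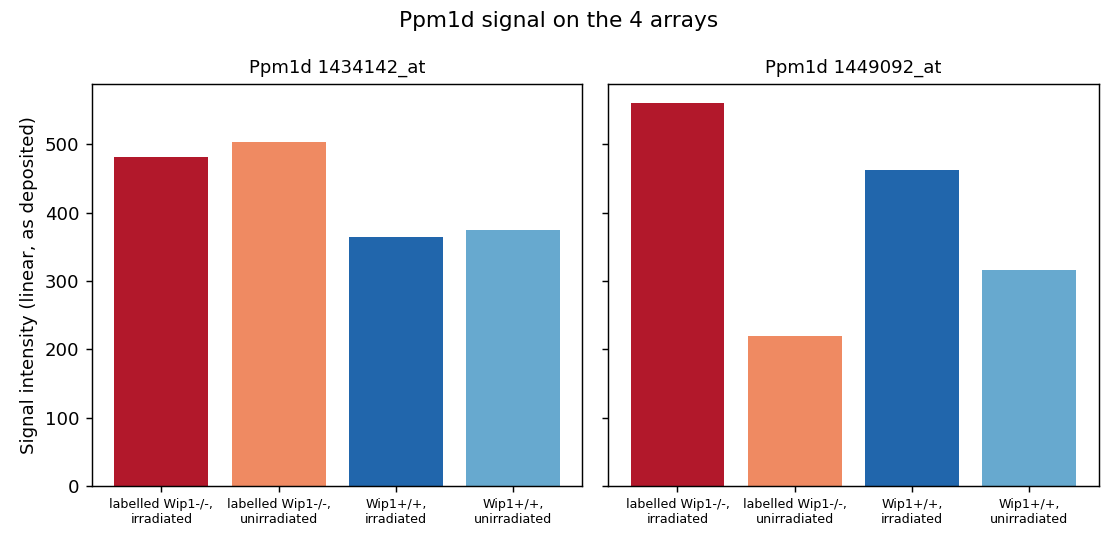
Signal intensity (linear axis, as deposited) of the 2 Ppm1d probe sets, 1 bar per array, with no error bars because each group has 1 array. The bars of 1434142_at sit at 482 and 504 on the arrays labelled Wip1-/- and at 364 and 375 on the Wip1+/+ arrays, while those of 1449092_at are taller on each irradiated array.

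Patterns over the 4 arrays were compared by the root mean square difference of log2 values after each probe set was centred on its own mean. By this measure the Ppm1d probe sets differed from each other by 0.61. Of the relatives' 20 probe sets in this comparison, 19 were closer to 1434142_at than 1449092_at was, and 15 were closer to 1449092_at than 1434142_at was. The nearest relative of 1434142_at was Ppm1m (0.18), and that of 1449092_at was Ppm1b 1425330_a_at (0.34). Among 18458 candidate probe sets of other genes, those most like 1434142_at were Fam168a, Kctd9 and Fbxo4, a substrate adaptor of a ubiquitin ligase, at 0.02 each, and 498 lay within 0.1. Those most like 1449092_at were Mrpl13, a mitochondrial ribosomal protein (0.02), Itsn1, an endocytic scaffold (0.06), and Pdk1, a kinase that restrains pyruvate dehydrogenase (0.06), and 21 lay within 0.1. With 4 points such likeness is a description only.

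Among the relatives that act on stress and TGF-beta signalling, Ppm1a, a phosphatase of Smad proteins and p38, had 6 probe sets that passed the filter. The brightest, 1415678_at, read 2757 and 3643 on the irradiated and unirradiated arrays labelled Wip1-/-, and 2751 and 3053 on those of Wip1+/+ cells. After irradiation the genotypes thus read nearly alike, and each irradiated array was below its unirradiated partner. The log2 ratios for irradiation were -0.40 in cells labelled Wip1-/- and -0.15 in Wip1+/+ cells.

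The Ppm1a probe set 1453171_s_at had the same order for irradiation, with log2 ratios of -0.36 and -0.13. The other 4 were lowest on the unirradiated array labelled Wip1-/-, whereas these 2 were highest there. For the unirradiated genotypes the 6 log2 ratios accordingly ran from -0.66 to 0.25. The dimmest of the 6, 1429500_at, read 122 and 69.5 on the irradiated and unirradiated arrays labelled Wip1-/- and 86.6 and 110 on those of Wip1+/+ cells. The signal was thus higher after irradiation with the Wip1-/- label (log2 ratio 0.81) and lower in Wip1+/+ cells (-0.35). Only 1425537_at and 1451943_a_at were lower on both arrays labelled Wip1-/- than on both Wip1+/+ arrays. The first of them had log2 ratios between genotypes of -0.46 after irradiation and -0.52 without.

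Ppm1b, a phosphatase of the kinases TAK1 and IKK-beta, was lowest on the unirradiated array labelled Wip1-/- by all 3 of its probe sets. The probe set 1425330_a_at read 876 and 410 on the irradiated and unirradiated arrays labelled Wip1-/-, and 904 and 939 on those of Wip1+/+ cells. A single array was low, and the other 3 lay within 1.07-fold of each other. Irradiated over unirradiated signal was 2.14-fold with the Wip1-/- label, against a log2 ratio of -0.05 in Wip1+/+ cells, and the unirradiated genotypes differed 2.29-fold, lower with the Wip1-/- label. By 1426382_at and 1451669_at the same difference was smaller, at log2 ratios of -0.61 and -0.29.

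Ppm1l, an endoplasmic reticulum phosphatase of the stress kinases TAK1 and ASK1, went the other way on that array. The probe set 1435787_at read 422 and 818 on the irradiated and unirradiated arrays labelled Wip1-/-, and 486 and 451 on those of Wip1+/+ cells. One array was high, and the rest lay within 1.15-fold. The probe set 1438012_at read 292 and 377 with the Wip1-/- label, against 222 and 190 in Wip1+/+ cells, so here both genotype pairs were separated. Its log2 ratios between genotypes were 0.40 after irradiation and 0.99 without, while those of 1435787_at were -0.20 and 0.86.

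For the relatives of cytoskeleton and adhesion, the brighter probe set of Ppm1f, a phosphatase of CaM kinase II and of PAK kinases, was higher after irradiation in both genotypes. It read 879 and 658 on the irradiated and unirradiated arrays labelled Wip1-/-, and 1044 and 852 on those of Wip1+/+ cells, with log2 ratios of 0.42 and 0.29. Its dimmer probe set, 1430631_at, read 78.3 and 77.6 with the Wip1-/- label and 138 and 109 in Wip1+/+ cells. That signal was 1.76-fold lower with the Wip1-/- label after irradiation and 1.41-fold lower without, and the difference after irradiation is the widest of the 22 between the irradiated genotypes. The brighter probe set had log2 ratios of -0.25 and -0.37 in the same comparisons. Ilkap, which acts on integrin-linked kinase signalling, read 908 and 818 on the irradiated and unirradiated arrays labelled Wip1-/- and 1015 and 871 on those of Wip1+/+ cells by its brighter probe set. Both irradiated arrays were above both unirradiated arrays, by log2 ratios of 0.15 and 0.22. The other Ilkap probe set had 0.59 with the Wip1-/- label and -0.20 in Wip1+/+ cells.

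Ppm1g, a nuclear phosphatase linked to splicing factors, read 2112 and 1649 on the irradiated and unirradiated arrays labelled Wip1-/-, and 2177 and 2236 on those of Wip1+/+ cells. As with Ppm1b, the unirradiated array labelled Wip1-/- was low and the other 3 lay within 1.06-fold. Ppm1k, the mitochondrial phosphatase that activates the branched-chain ketoacid dehydrogenase, read 140 and 107 with the Wip1-/- label and 196 and 211 in Wip1+/+ cells. The genotypes did not overlap, with log2 ratios of -0.48 after irradiation and -0.98 without.

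Ppm1h, a phosphatase of Rab GTPases, was measured by 2 dim probe sets that differed from each other. By 1435510_at it read 91.1 and 227 on the irradiated and unirradiated arrays labelled Wip1-/-, and 79.1 and 125 on those of Wip1+/+ cells. Both irradiated arrays were below both unirradiated arrays, with log2 ratios of -1.32 with the Wip1-/- label and -0.66 in Wip1+/+ cells. By 1455737_at the log2 ratios for irradiation were -0.16 and -0.04. That probe set read 114 and 128 with the Wip1-/- label and 152 and 156 in Wip1+/+ cells, so that the genotypes did not overlap. Ppm1m, another member of the family, was the steadiest of all, at 951 and 963 on the irradiated and unirradiated arrays labelled Wip1-/- and 939 and 877 on those of Wip1+/+ cells. Its highest and lowest arrays were 1.10-fold apart.

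**Figure D2:**
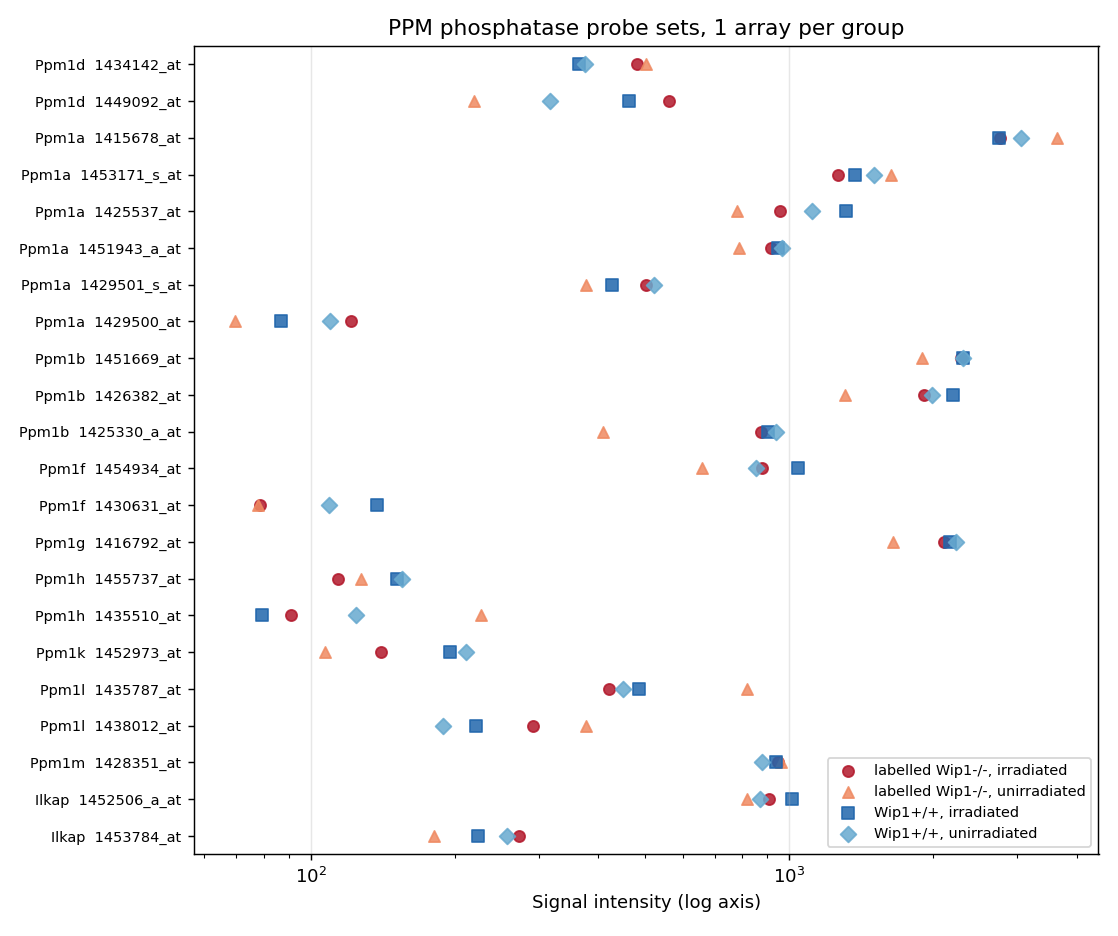
Signal intensity (log axis) of the 22 PPM phosphatase probe sets that passed the filter, 1 point per array and group, with no replicates. The unirradiated array labelled Wip1-/- (triangles) is at one end of the row for 21 of the 22, and the Ppm1m points almost coincide.

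Irradiation of the cells labelled Wip1-/- left 3 of the 22 member probe sets at least 2-fold apart, and 11.5% of all 20323 tested probe sets were, a like share. These were Ppm1d 1449092_at and Ppm1b 1425330_a_at, which were higher, and Ppm1h 1435510_at, which was lower. The members' median log2 ratio was 0.25, against -0.01 over all tested probe sets. In Wip1+/+ cells 0 of the 22 reached 2-fold, where 3.51% of all did. The members there ran from -0.66 to 0.55 with a median of -0.03, against 0.00 over all, and Ppm1d 1449092_at was the highest and Ppm1h 1435510_at the lowest. The same probe sets thus marked both ends in both genotypes. Both irradiated arrays lay outside both unirradiated arrays for 6 of the 22, where 32.9% of all did. The 3 higher ones (16.1% of all) were Ppm1d 1449092_at, Ilkap 1452506_a_at and Ppm1f 1454934_at, and the 3 lower ones (16.8% of all) were Ppm1a 1415678_at, Ppm1a 1453171_s_at and Ppm1h 1435510_at.

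Between the unirradiated genotypes 1 of the 22 was at least 2-fold apart, Ppm1b 1425330_a_at, where 13.3% of all were. The members' median log2 ratio was -0.33, against 0.02 over all tested probe sets, and 7 of the 22 had a ratio above 1, where 51.3% of all had. Between the irradiated genotypes 0 of the 22 reached 2-fold, where 5.47% of all did, and the median was -0.05, against 0.01 over all. Both arrays labelled Wip1-/- lay outside both Wip1+/+ arrays for 12 of the 22, where 38.8% of all did. Of these, 9 were lower, where 18.6% of all were, and 3 were higher, where 20.3% were. The lower ones were all those of Ppm1b, Ppm1a 1425537_at and 1451943_a_at, Ppm1f 1430631_at, Ppm1g, Ppm1h 1455737_at and Ppm1k 1452973_at. Some genes thus entered more than once. On the irradiated pair Ppm1b 1451669_at and 1425330_a_at, Ppm1g and Ppm1a 1451943_a_at had log2 ratios of only -0.01 to -0.05. The higher ones were Ppm1d 1434142_at, Ppm1l 1438012_at and Ppm1m. Without the unirradiated array labelled Wip1-/-, the irradiated one lay outside both Wip1+/+ arrays for 17 of the 22, where 70% of all did, 11 of them lower (34% of all) and 6 higher (36%). Macrophage markers summed to 2179 and 2606 on the arrays labelled Wip1-/- and 9939 and 9765 on the Wip1+/+ arrays in the same comparisons, and their part in these differences was not tested.

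**Figure D3:**
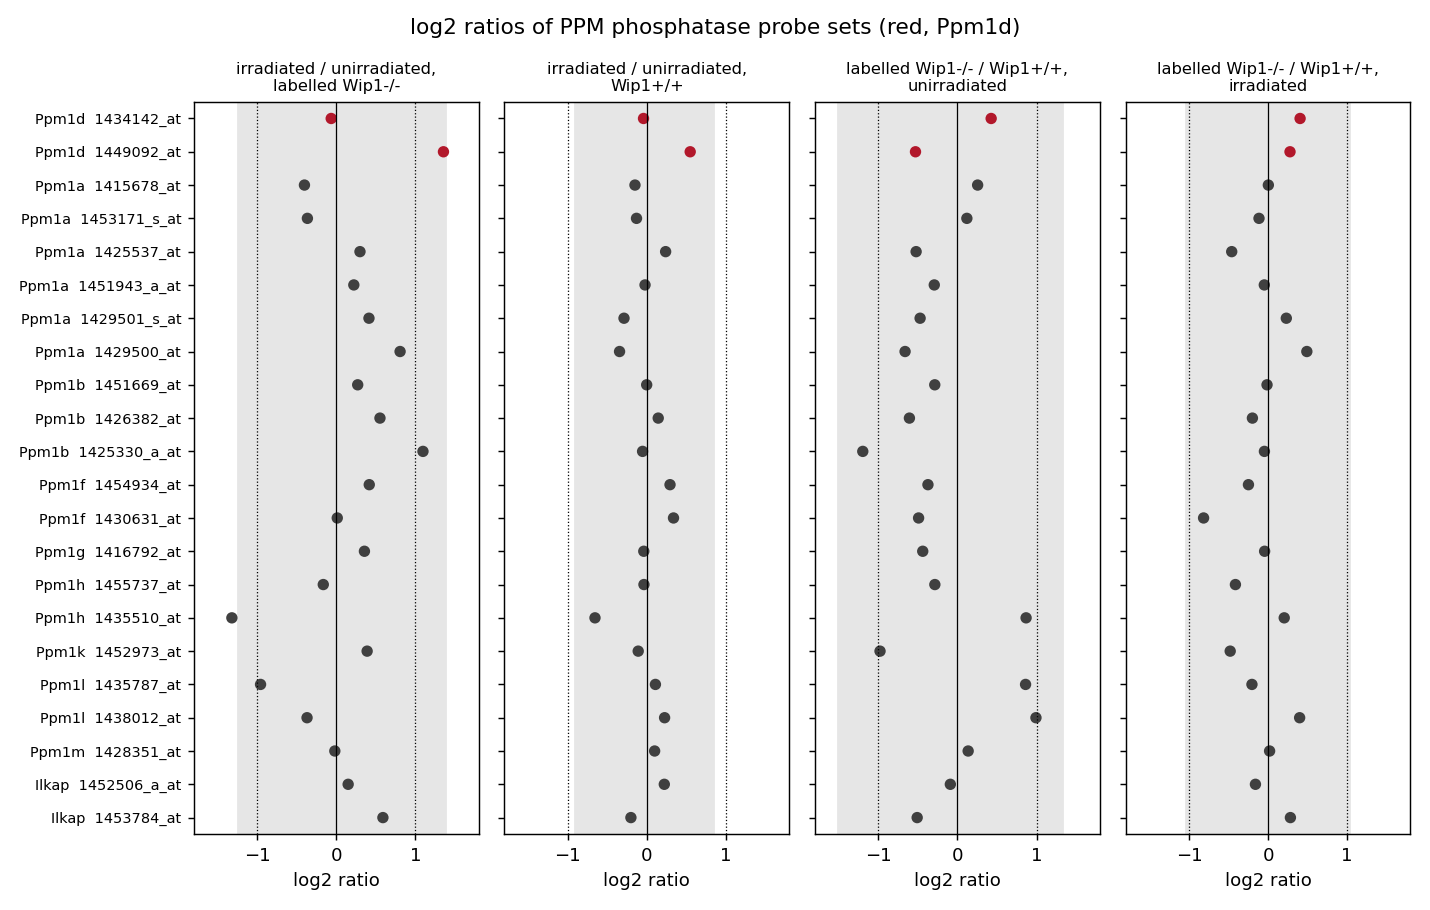
log2 ratios of the 22 probe sets in the 4 comparisons, with Ppm1d in red, dotted lines at 2-fold and grey bands for the central 95% of all tested probe sets. In the irradiation of Wip1+/+ cells and between the irradiated genotypes every point lies between the dotted lines, and Ppm1h 1435510_at in the irradiation of cells labelled Wip1-/- is the only point outside a band.

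The member probe sets were at least 2-fold apart between their highest and lowest arrays in 3 of 22 cases, where 25.4% of all tested probe sets were. These were again Ppm1d 1449092_at, Ppm1b 1425330_a_at and Ppm1h 1435510_at. Without the unirradiated array labelled Wip1-/- the count was 0 of 22, where 10% of all were, and the widest were Ppm1d 1449092_at at 1.77-fold and Ppm1f 1430631_at at 1.76-fold. The unirradiated array labelled Wip1-/- was the lowest of the 4 for 14 of the 22, where it was for 35.3% of all, and the highest for 7, where it was for 37.7%. It was thus at one end for 21, where it was for 72.9% of all. The exception was Ppm1h 1455737_at. The log2 ratio for irradiation differed between the genotypes by at least 1 for 3 of the 22, where 14.9% of all did, and the difference for Ppm1d was 0.81 by 1449092_at and -0.02 by 1434142_at.

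**Figure D4:**
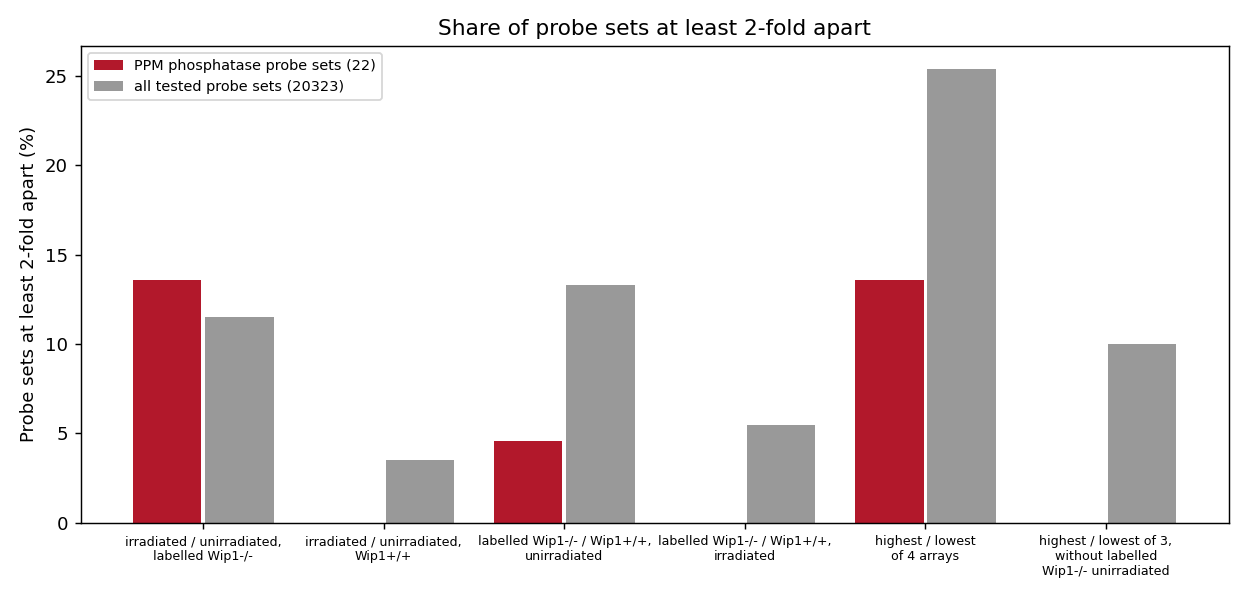
Percent of probe sets at least 2-fold apart among the 22 PPM phosphatase probe sets (red) and all 20323 tested probe sets (grey), in each comparison and between the highest and lowest arrays. The red bar is above the grey one in the irradiation of cells labelled Wip1-/- and below it elsewhere, at 0 in the irradiation of Wip1+/+ cells, between the irradiated genotypes, and over the 3 arrays.

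The wider PPM family and the partners of Wip1 were described by lists, each gene through its brightest probe set. Of 10 other PPM phosphatases and pseudophosphatases Ppm1e and Ppm1n were too dim for the filter. Pp2d1 had no probe set under its symbol alone, and 7 passed. None was 2-fold apart in any of the 4 comparisons, where 10.3% of all genes were for irradiation of cells labelled Wip1-/-, 3.08% for irradiation of Wip1+/+ cells, 12% between the unirradiated genotypes and 5.29% between the irradiated ones. The widest log2 ratio in each comparison was 0.54 for Pdp1, a phosphatase of pyruvate dehydrogenase, in the irradiation of cells labelled Wip1-/-, and 0.63 for Tab1, the adaptor of TAK1, in that of Wip1+/+ cells. Between the genotypes it was 0.66 for Tab1 without irradiation and 0.74 for Ppm1j after it.

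Of 16 Wip1 substrates and damage signalling genes 15 passed the filter, and Trp53, the gene of p53, had no probe set under its symbol alone. By brightest probe sets Ung was the only gene of the list at least 2-fold apart in any comparison. Ung is the uracil-DNA glycosylase whose nuclear form Wip1 dephosphorylates. It read 72.8 and 362 on the irradiated and unirradiated arrays labelled Wip1-/-, and 134 and 148 on those of Wip1+/+ cells. A single array was high, the one on which spike-in controls differed. Ung was 2-fold apart for irradiation of cells labelled Wip1-/- and between the unirradiated genotypes, where 10.3% and 12% of all genes were. Other probe sets that passed were at least 2-fold apart in a comparison for Brca1, Mapk14 and Mdm4. The widest of these was Brca1 1427698_at, with a log2 ratio of at least 1.54 between the irradiated genotypes. Its irradiated Wip1+/+ signal, 7.2, was under the floor. In the same comparison the brightest probe set of Brca1 had 0.03, and the others that passed -0.01 and 0.55. Of the 15 genes, 6 were higher and 9 lower after irradiation with the Wip1-/- label, and 8 were higher and 7 lower after irradiation in Wip1+/+ cells. The medians were -0.05 and 0.10, against -0.03 and 0.01 over all genes.

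Of 8 known regulators of Ppm1d 6 passed, and Trp53 and Nfkb1 had no probe set under their symbols alone. Creb1, a factor that binds TGACGTCA, read 801 and 539 on the irradiated and unirradiated arrays labelled Wip1-/-, and 720 and 461 on those of Wip1+/+ cells. By its brightest probe set both irradiated arrays were above both unirradiated arrays, as for 16.1% of all tested probe sets, with log2 ratios of 0.57 and 0.64. Creb1 was picked after its values were seen, because its element stands in the sequences above. Of its other probe sets that passed, 1452901_at had 1.54 with the Wip1-/- label and 0.50 in Wip1+/+ cells, 1452529_a_at had 1.17 and 0.46, and 1423402_at had 0.19 and 0.47. The last, 1421582_a_at, went opposite ways, with 0.99 and -0.61. By brightest probe sets 4 of the 6 regulators were higher and 2 lower after irradiation in each genotype. The medians were 0.38 with the Wip1-/- label and 0.21 in Wip1+/+ cells, against -0.03 and 0.01 over all genes. E2f1 was lower in both, with log2 ratios of -0.43 and -0.27, and its other probe set that passed had 0.22 and -0.54. Esr1, the estrogen receptor, was the only regulator at least 2-fold apart by its brightest probe set. On the unirradiated Wip1+/+ array Esr1 was under the floor, and its signal was at least 2.03-fold higher on the irradiated Wip1+/+ array and at least 2.29-fold higher on the unirradiated array labelled Wip1-/-.

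All 11 other phosphatases of the damage response passed. Ppp5c, a phosphatase that acts with Hsp90, was 2.10-fold lower after irradiation of cells labelled Wip1-/-, and its other probe sets had log2 ratios of -0.63 and 0.10. Between the unirradiated genotypes Ppp1cb, a catalytic subunit of PP1, had a log2 ratio of -1.14 and Cdc25c, an activator of mitotic CDK1, -1.67. Other probe sets of Ppp1cb had 1.23, -0.46 and 0.65 between the unirradiated genotypes, and that of Cdc25c 0.00. Ppp2ca 1439912_at had 1.37 in that comparison. For irradiation of cells labelled Wip1-/- it had -1.68, with the irradiated signal, 24.0, under the floor. After irradiation of Wip1+/+ cells none of the 11 was 2-fold apart, where 3.08% of all genes were. Of the 11, 10 were lower, with a median of -0.09, against 0.01 over all genes. The share of all genes that were lower is not given here. These 10 ran from -0.28 to -0.06. The SD between probe sets of the same gene was 0.37 over all tested and 0.18 where the mean was at least 500. Cdc25c, at -0.28, was dimmer than that. Of the other probe sets that passed, Cdc25c 1456077_x_at had 0.97 there, Ppp2ca 1439912_at 0.81 and 1456390_at 0.02, and Ppp1cb 1456462_x_at 0.21. The rest were lower.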

How the data were processed

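RNA from 4 groups of mouse embryonic fibroblasts was measured on 1 array each. The authors deposited a linear signal intensity for each probe set and array, made with GCOS, the Affymetrix software, per the submitters' processing notes. No version, background step or scaling target is given in the sources used here. The mean after trimming 2% at each end was 500.0 on every array, so the values were used as deposited. The number of arrays limits the precision. Groups come from the sample titles.

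Probe sets were named by the platform annotation, and 34945 of 45101 had 1 symbol. A floor of 46.5 was set before log2, and probe sets with a mean of at least 67.97 over the arrays were tested, 20323 in all. Groups of 1 array allow no test, so differences of at least 2-fold were counted. All member genes were named, but not each of their probe sets. From the lists, genes at least 2-fold apart were named, or in a list with none the widest, and 3 probe sets most like each of Ppm1d's. Creb1 was added after its values were seen. Members, lists and marker lists were chosen with earlier results of these data known. Symbols were checked by gene identifier against RefSeq (GRCm38.p6), which changed 0 member symbols. The ratio and call steps were tested on simulated data. Alternatives changed scaling, floor, filter, probe set choice and the arrays used. R 4.3.3 with limma 3.58.1, Python 3.11.15, numpy 2.4.6 and pandas 2.3.3 were used.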

Additional observations from a re-analysis of the deposited data

Results flagged for a closer look

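In 3 probe sets the irradiation log2 ratio had opposite signs in the genotypes and differed between them by at least 1. With 1 array per group the difference was not tested. The ratio with the Wip1-/- label minus that in Wip1+/+ cells was 1.15 for Ppm1b 1425330_a_at, 1.15 for Ppm1a 1429500_at and -1.06 for Ppm1l 1435787_at. All 3 rest on the unirradiated array labelled Wip1-/-, at 410, 69.5 and 818, whose spike-in controls stood apart. Other probe sets of the same genes that passed the filter had smaller differences, from 0.27 to 0.41 for Ppm1b, from -0.25 to 0.70 for Ppm1a and of -0.59 for Ppm1l. Among the dim ones Ppm1l 1435699_at had 0.55, the opposite sign, and those of Ppm1a had -0.56 and 0.27.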

How the results depend on the processing

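The counts of member probe sets at least 2-fold apart were small, and those that use the unirradiated array labelled Wip1-/- moved with the processing. For irradiation of cells labelled Wip1-/- the count of 3 of 22 became 5 under quantile normalization, where 11.7% of all were 2-fold apart. It was 4 under cyclic loess (10.6% of all) and 4 when scaled by the median of brighter probe sets (11.9%). With the filter at the 67th percentile it was 2 of 17 (6.02% of all), and with 1 probe set per gene 0 of 10 (10.3%). Between the unirradiated genotypes the count of 1 became 3 under quantile normalization (13.9% of all) and 2 under cyclic loess (12.6%). It was 2 when scaled by the median of brighter probe sets (13.5% of all) and 0 of 10 with 1 probe set per gene (12%). Without that array, the count over the highest and lowest arrays was 0 in place of 3. The share of all probe sets was 10% in place of 25.4%. This alternative was chosen after the data were seen. So was the count for genotypes that do not overlap, 17 in place of 12, where the share of all probe sets was 70% in place of 38.8%, since 1 array in place of 2 has to lie outside the Wip1+/+ pair. For irradiation of Wip1+/+ cells and between the irradiated genotypes the count was 0 under every alternative run. The shares of all under these alternatives ran from 0.428% to 4.57% and from 1.89% to 6.52%. The members' median log2 ratio between the unirradiated genotypes ran from -0.37 to -0.19, and for irradiation of cells labelled Wip1-/- from 0.07 to 0.27. The log2 ratio of Ppm1d 1449092_at for irradiation stayed between 1.27 and 1.36 with the Wip1-/- label and between 0.53 and 0.55 in Wip1+/+ cells over the scaling and floor alternatives. The cause of these movements was not tested. No paired analysis was possible because each group held 1 array and the labels give no replicate numbers.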
